A study of Mus musculus with 4 samples.

Results

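Among 12570 mouse genes whose mean was 1 TPM or more (the share of a gene among all transcripts, corrected for length) over 4 libraries of tumour-infiltrating CD8 T cells, 66 were higher by at least 2-fold in cells given extra Klf4 and lower by at least 2-fold in cells from mice labelled as lacking Klf4. They were chosen by 3 conditions: that mean level, a difference in log2(TPM + 1) of at least 1 for Klf4 minus MigRI, and one of at most -1 for Klf4 cKO minus Control (WT). The 2 differences therefore define the genes, and their values are given as a description. The set held 37 protein-coding genes, 12 long noncoding RNAs (lncRNAs), 9 small RNA genes, 2 pseudogenes and 6 entries that the annotation did not place.

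The series had 1 library in each of 4 groups and addresses how Klf4 acts on CD8 T cells in tumours. In the transfer experiment, Pmel-I CD8 T cells transduced with Klf4 or with MigRI were injected on day 7 into Rag2 KO mice that had received 300000 MC38-gp100 tumour cells on day 0, and GFP+ CD8 T cells were recovered from the tumours on day 15. In the genetic experiment, 300000 MC38 cells were given on day 0 to Klf4 cKO or control (WT) mice, and PD1+ CD8+ T cells were recovered from the tumours on day 14. Each library was made by SMART-seq from 10000 to 20000 cells. MC38 is a mouse colon carcinoma line, gp100 is the antigen that the Pmel-I T cell receptor recognises, and Rag2 KO hosts make no T or B cells of their own. The labels do not say how Klf4 was deleted, in which cells, or how many mice gave each library, and give no age or sex. With 1 library per group there was no replicate, no error and no test, so every difference compares 2 libraries. TPM values keep no read depth, so no counting interval can be given.

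Klf4 is a zinc finger transcription factor of the Krüppel-like family. Factors of this family bind GC-rich and CACCC-type sequences and can activate or repress their targets. In CD8 T cells Klf4 is known for restraining proliferation, and its level falls when naive cells are activated.

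Klf4 itself was not among the 66 genes. Its level was 26.0 TPM in the Klf4 library, against 8.69 TPM in the MigRI library, a log2 difference of 1.48. It stood at 9.28 TPM in the library labelled Klf4 cKO, against 7.52 TPM in Control (WT), a log2 difference of 0.27 as deposited and of -0.47 once the median difference of all genes is subtracted. As deposited, the targeted gene was not lower in the library labelled Klf4 cKO. A gene-level TPM can include reads from exons outside a deleted part, so this value does not check the genotype.

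The background in these libraries was broad. The median difference over all measured genes was 0.79 for Klf4 minus MigRI and 0.74 for Klf4 cKO minus Control (WT), so most genes were higher in the Klf4 library than in MigRI, and higher in the library labelled Klf4 cKO than in Control (WT). A difference of at least 1 for Klf4 minus MigRI was held by 43.7% of measured genes, and one of at most -1 for Klf4 cKO minus Control (WT) by 6.92%. Both held for 66 genes, or 0.525% of measured genes. They made up 1.20% of the genes that were higher with Klf4, where 6.92% of all genes passed the second condition. They made up 7.59% of the genes that were lower in the library labelled Klf4 cKO, where 43.7% of all genes passed the first. By the same limits 2553 genes were higher in both comparisons, 359 were lower in both and 282 were lower with Klf4 and higher in the library labelled Klf4 cKO.

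Markers of cell types also differed between the libraries. The summed TPM of 12 T cell and CD8 markers was 5850 in the Klf4 library, against 24684 in MigRI, and 18670 in the library labelled Klf4 cKO, against 8008 in Control (WT). None of these markers was listed at 0. Of the 12, 10 were lower by the limit with Klf4, against 10.3% of all measured genes. In the library labelled Klf4 cKO 10 were higher by it, against 38.4% of all measured genes. In both comparisons the library with higher levels of the 66 genes thus had the lower T cell marker sum. Sums of macrophage and stroma markers were above those of MigRI with Klf4, where the 66 genes were also higher. In the library labelled Klf4 cKO these sums were above those of Control (WT), where the 66 genes were lower. The macrophage and monocyte markers summed to 5280 TPM with Klf4, against 1618 TPM in MigRI, and to 6137 TPM in the library labelled Klf4 cKO, against 1535 TPM in Control (WT). Ly6c2 alone made up 4870 TPM of the sum in the library labelled Klf4 cKO and 1133 TPM of that in Control (WT). Without it the sums were 4753 TPM with Klf4, against 928 TPM in MigRI, while they were 1267 TPM in the library labelled Klf4 cKO, against 402 TPM in Control (WT). Fibroblast and endothelial markers summed to 1284 TPM with Klf4, against 135 TPM in MigRI, and to 246 TPM in the library labelled Klf4 cKO, against 30.5 TPM in Control (WT). Fewer T cells in a sample and less T cell RNA per cell cannot be told apart in bulk libraries. The part of cell makeup in the levels of the 66 genes was not tested.

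Small RNA genes were a larger share of these genes than of the background, and 5 of the 9 were microRNA genes, which were chosen for display after their values were seen. MicroRNAs pair with target mRNAs mainly through the seed, bases 2 to 8 of the mature strand. RefSeq sequences on GRCm38.p6, the mm10 assembly, were found for 4 of the 5 loci, and the 7 mature strands are shown because the seed decides which targets each could pair with. Mir27a lies at chr8:84208672-84208758 on the plus strand, and Mir219a-1 at chr17:34024983-34025092 on the minus strand. Mir6385 lies at chr9:58221150-58221254 and Mir7688 at chr10:93433107-93433162, both on the plus strand. The seed is in capitals, and the 7 strands carried 7 distinct seeds, so no seed was shared.
mmu-miR-27a-3p: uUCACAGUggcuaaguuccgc
mmu-miR-27a-5p: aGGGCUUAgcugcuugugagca
mmu-miR-219a-5p: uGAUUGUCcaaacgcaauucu
mmu-miR-219a-1-3p: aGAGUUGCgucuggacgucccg
mmu-miR-6385: gCAAGGAUgacagagaggaag
mmu-miR-7688-5p: uAGCUGGGcaugaucugaugagc
mmu-miR-7688-3p: uCUGGCUUaugccuagcuuuc

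The TPM values below are those of the microRNA loci in a cDNA library of longer RNA, and say nothing of the level of the mature strands above. Mir27a was at 5.48 TPM in the Klf4 library, against a listed 0 in MigRI, and at 0.525 TPM in the library labelled Klf4 cKO, against 3.83 TPM in Control (WT). Mir219a-1 was at 3.74 TPM with Klf4, against 0.678 TPM in MigRI, and at 0.190 TPM in the library labelled Klf4 cKO, against 38.0 TPM in Control (WT). Its log2 difference of -5.04 was the lowest of the 66 genes for Klf4 cKO minus Control (WT), and its level was set mainly by 1 library, Control (WT). Mir219c, which overlaps it, was listed at 0 in the other 3 libraries and at 4.45 TPM in Control (WT). Mir6385, which lies within Pml, was at 2.55 TPM with Klf4, against 0.623 TPM in MigRI, and at 15.6 TPM in the library labelled Klf4 cKO, against 67.1 TPM in Control (WT). Both libraries of the genetic experiment thus exceeded both of the transfer experiment at this locus. Mir7688 was at 4.30 TPM with Klf4, against 1.502 TPM in MigRI, and at 1.17 TPM in the library labelled Klf4 cKO, against 4.62 TPM in Control (WT). The fifth locus, Mir1911, lies within Htr2c on chromosome X and was matched through an older name only. It was at 4.65 TPM with Klf4, against 0.0829 TPM in MigRI, and at 0.137 TPM in the library labelled Klf4 cKO, against 8.46 TPM in Control (WT).

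MicroRNA clusters are usually transcribed as 1 precursor, and Mir27a has 2 neighbours in its own. Mir23a was at 2.40 TPM with Klf4, against a listed 0 in MigRI, and at 1.22 TPM in the library labelled Klf4 cKO, against 3.13 TPM in Control (WT). Mir24-2 was at 6.93 TPM with Klf4, against 2.69 TPM in MigRI, and at 5.93 TPM in the library labelled Klf4 cKO, against 2.09 TPM in Control (WT). For Klf4 cKO minus Control (WT) the log2 difference was -0.90 for Mir23a, which had the sign of Mir27a, and 1.17 for Mir24-2, which had the other sign.

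Few of the 66 genes had high levels. Their median was 8.50 TPM in the Klf4 library, against 1.82 TPM in MigRI, while it was 2.50 TPM in the library labelled Klf4 cKO, against 8.30 TPM in Control (WT). Over all measured genes the medians were 12.7 TPM with Klf4, against 5.56 TPM in MigRI, while they were 6.81 TPM in the library labelled Klf4 cKO, against 3.76 TPM in Control (WT). The Control (WT) library, with the lowest median over all genes, held these genes at a median close to that of the Klf4 library. The conditions that chose the genes favour high levels in both these libraries and low levels in MigRI and the library labelled Klf4 cKO. The summed level was 1302 TPM in the Klf4 library, against 424 TPM in MigRI, while it was 332 TPM in the library labelled Klf4 cKO, against 1026 TPM in Control (WT). The mean over the 4 libraries was at least 10 TPM for 24 of the 66 genes (36.4%, against 45.7% of measured genes) and at least 50 TPM for 2 (3.03%, against 18.7%). By mean level, the set took 0.661% of measured genes from 1 to 5 TPM and 0.503% from 5 to 10 TPM. It took 0.648% from 10 to 50 TPM and 0.0852% from 50 TPM, so mainly the highest levels were sparse. In 32 genes even the highest library was under 10 TPM, and the matching share of all measured genes is not given here. A value of 0 was listed for 8 genes in MigRI and for 7 in the library labelled Klf4 cKO, 4 of them in both.

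**Figure D1:**
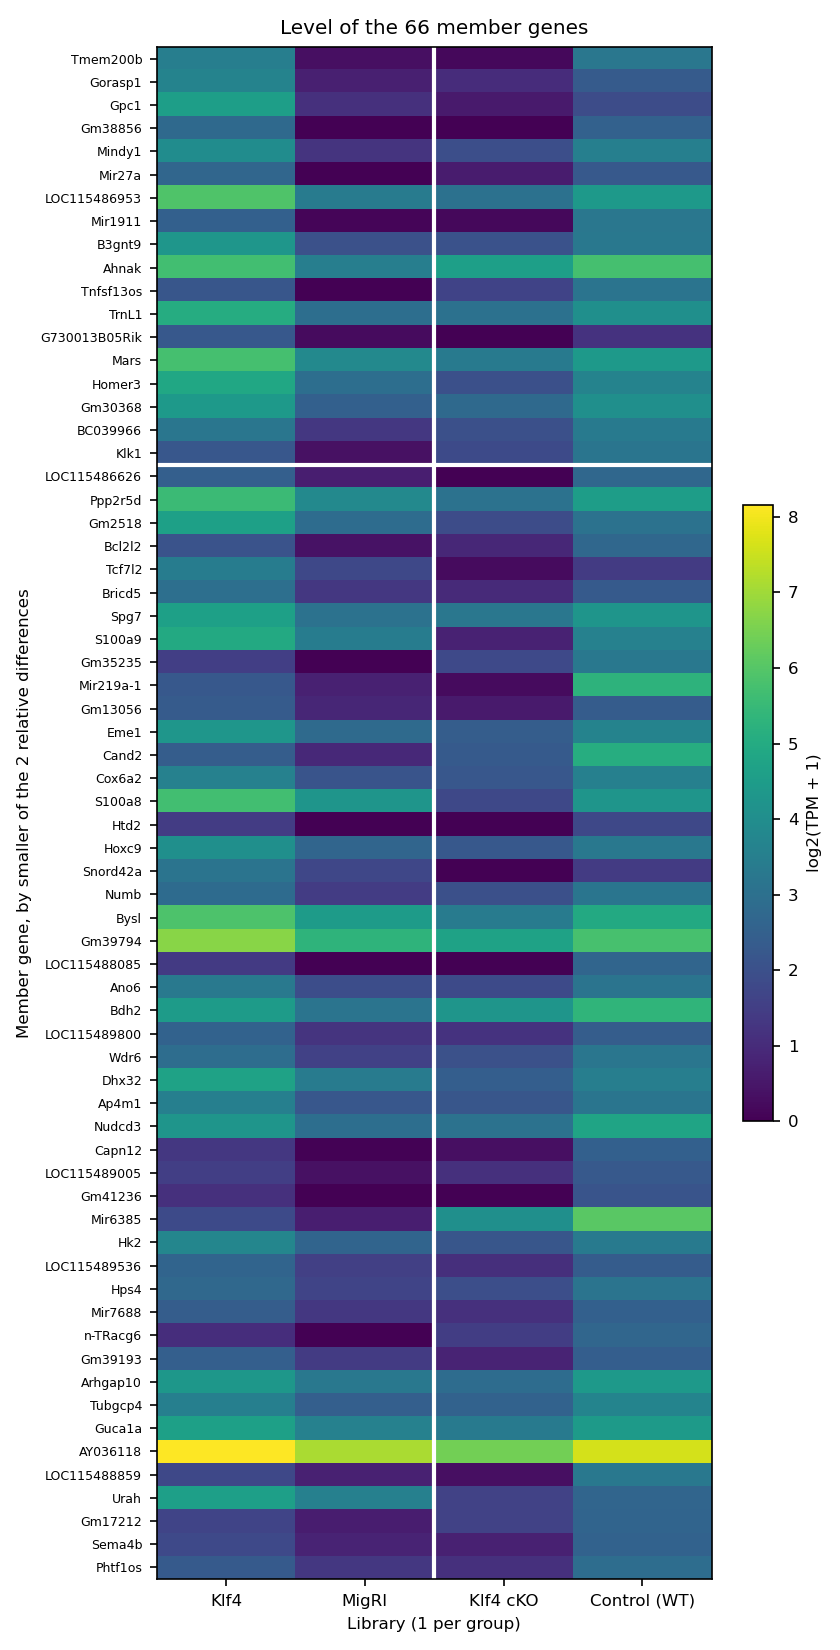
Level of the 66 genes, as log2(TPM + 1), in the 4 libraries (1 per group), ordered from top to bottom by the smaller of the 2 differences after subtraction of the median difference. The white horizontal line separates the 18 genes that stayed past 1 in both differences from the other 48. Klf4 and Control (WT) are the brighter columns, and AY036118, at 285 TPM in the Klf4 library, is the brightest row.

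The 2 experiments were run in different mice, and no log2 difference was taken between them. Where levels are set side by side across them, the experiment differs as well. Both high libraries, Klf4 and Control (WT), exceeded both low libraries in 60 of the 66 genes, against 690 of the 12570 measured genes. The conditions that chose the genes favour this order. The log2 difference ran up to 3.44 for Klf4 minus MigRI with a median of 1.45, and down to -5.04 for Klf4 cKO minus Control (WT) with a median of -1.34. It was at least 2 in 13 genes for Klf4 minus MigRI and at most -2 in 13 genes for Klf4 cKO minus Control (WT), with 3 genes in both groups.

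Several genes lay close to the limits. Just inside the limit of 1 for Klf4 minus MigRI, among genes at a mean of at least 10 TPM, were Urah at 1.03, Guca1a at 1.05 and Arhgap10 at 1.06. Just outside it, and past the other limit, were Brd8 at 0.94, Qrich1 at 0.90 and S100a6 at 0.83. Just inside the limit of -1 for Klf4 cKO minus Control (WT) were Spg7 at -1.03, Dhx32 at -1.04 and Urah at -1.05. Just outside it were Bbc3 at -0.97, Fermt2 at -0.95 and Rnf126 at -0.95. Genes on either side of a limit thus differed by less than 0.3 on the log2 scale.

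Subtraction of the median difference acted on the 2 comparisons in opposite ways. After it, a relative difference of at least 1 for Klf4 minus MigRI was held by 21.4% of measured genes, and one of at most -1 for Klf4 cKO minus Control (WT) by 16.2%. A gene then needed a deposited difference of at least 1.79 in the first comparison, but only -0.26 or lower in the second. All 66 genes therefore stayed past the limit for Klf4 cKO minus Control (WT) by construction, with relative differences between -5.77 and -1.74. In the comparison of Klf4 with MigRI, 18 stayed and 48 did not, with relative differences between 0.21 and 2.64. All 66 genes kept the sign of both differences by construction, since the median subtracted for Klf4 minus MigRI was under the limit of 1. The 18 genes were 9 protein-coding genes, 5 lncRNAs, 3 small RNAs and 1 unplaced entry, and 6 of them had a mean of at least 10 TPM.

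**Figure D2:**
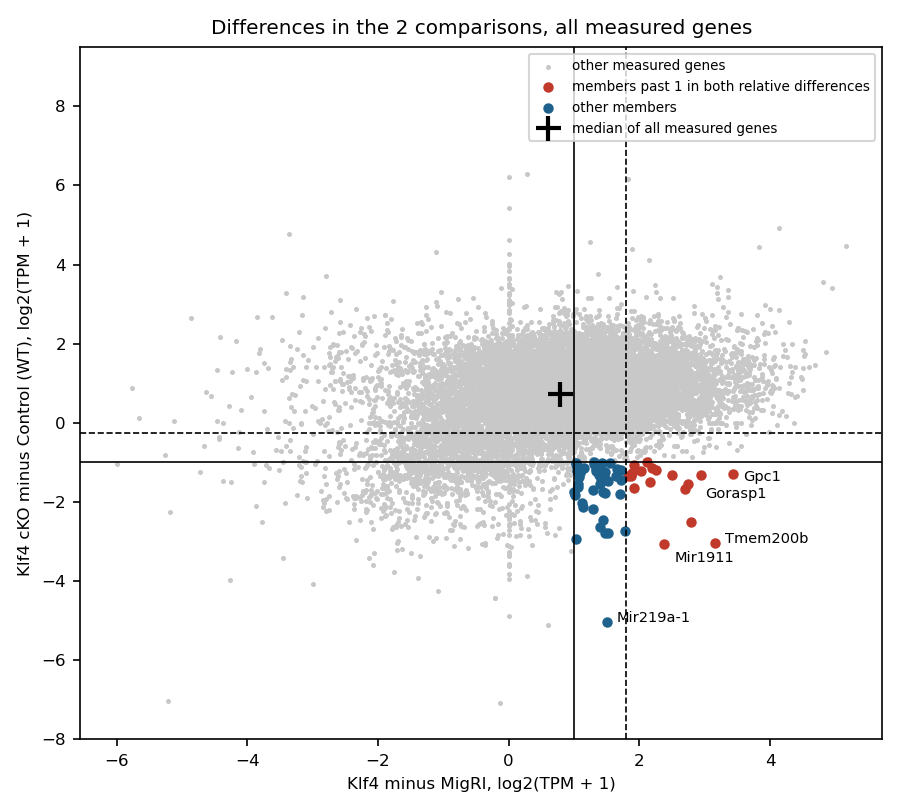
Difference in log2(TPM + 1) for Klf4 minus MigRI (horizontal) and for Klf4 cKO minus Control (WT) (vertical), 1 point per measured gene. Solid lines mark 1 and -1, dashed lines the same limits after subtraction of the medians of 0.79 and 0.74, and the cross marks those medians. The 18 red points lie beyond both pairs of lines, and the 48 blue points lie to the left of the dashed vertical line at 1.79.

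The 9 protein-coding genes that stayed past the limit were Tmem200b, Gorasp1, Gpc1, Mindy1, B3gnt9, Ahnak, Mars, Homer3 and Klk1, of which Ahnak, Mars and Homer3 met the rule for named genes and the other 6 were chosen after their values were seen. Ahnak, a giant scaffold protein known in T cells for its part in calcium signalling, was at 50.7 TPM in the Klf4 library, against 10.3 TPM in MigRI, and at 23.5 TPM in the library labelled Klf4 cKO, against 52.8 TPM in Control (WT). Its relative differences were 1.40 for Klf4 minus MigRI and -1.87 for Klf4 cKO minus Control (WT). Homer3, a scaffold protein whose family is known to bind NFAT and dampen T cell activation, was at 27.9 TPM with Klf4, against 6.67 TPM in MigRI, and at 2.99 TPM in the library labelled Klf4 cKO, against 11.6 TPM in Control (WT). Its relative differences were 1.12 for Klf4 minus MigRI and -2.40 for Klf4 cKO minus Control (WT). Mars, the cytosolic methionyl-tRNA synthetase, was at 53.5 TPM with Klf4, against 13.4 TPM in MigRI, and at 9.13 TPM in the library labelled Klf4 cKO, against 20.1 TPM in Control (WT). Its relative differences were 1.13 for Klf4 minus MigRI and -1.80 for Klf4 cKO minus Control (WT). The margins of Homer3 and Mars were small: with scaling by the median of ratios, their differences for Klf4 minus MigRI were 0.97 and 0.95.

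Gpc1, the cell surface heparan sulfate proteoglycan glypican 1, had the highest difference for Klf4 minus MigRI. It was at 22.7 TPM with Klf4, against 1.19 TPM in MigRI, and at 0.5004 TPM in the library labelled Klf4 cKO, against 2.70 TPM in Control (WT), so its level with Klf4 stood far above the other 3. Tmem200b, a predicted membrane protein, was past 2 in both comparisons. It was at 10.1 TPM with Klf4, against 0.254 TPM in MigRI, and at 0.140 TPM in the library labelled Klf4 cKO, against 8.44 TPM in Control (WT). Gorasp1, a Golgi stacking protein, was at 11.6 TPM with Klf4, against 0.646 TPM in MigRI, and at 1.05 TPM in the library labelled Klf4 cKO, against 4.13 TPM in Control (WT). Mindy1, a deubiquitinase, was at 14.8 TPM with Klf4, against 1.36 TPM in MigRI, and at 2.92 TPM in the library labelled Klf4 cKO, against 10.6 TPM in Control (WT). B3gnt9, a glycosyltransferase of the Golgi, was at 18.6 TPM with Klf4, against 3.10 TPM in MigRI, and at 3.17 TPM in the library labelled Klf4 cKO, against 8.62 TPM in Control (WT). In these 5 genes at least 1 low library was under 4 TPM, where a few reads can move a value. Klk1, tissue kallikrein, was the lowest in level of the 9 protein-coding genes, at 3.63 TPM with Klf4, against 0.302 TPM in MigRI, and at 2.55 TPM in the library labelled Klf4 cKO, against 7.97 TPM in Control (WT).

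**Figure D3:**
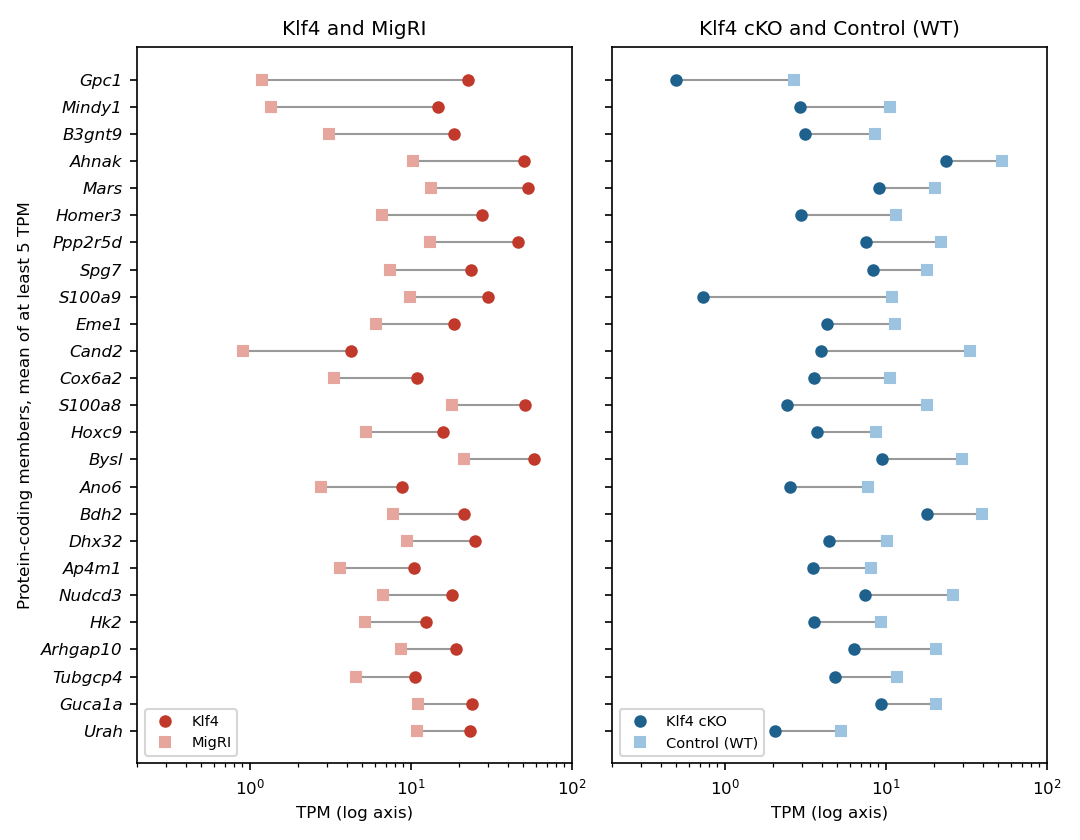
TPM, on a log axis, of the 25 protein-coding genes of the set with a mean of at least 5 TPM, with Klf4 and MigRI in the left panel and Klf4 cKO and Control (WT) in the right panel. Circles are Klf4 or Klf4 cKO, squares are MigRI or Control (WT), and rows run from the largest to the smallest value of the smaller relative difference. Gpc1 has the longest line on the left, and S100a9 the longest on the right.

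The other 28 protein-coding genes fell short of the limit for Klf4 minus MigRI once its median was subtracted. Among regulators of signalling, Ppp2r5d, a regulatory subunit of protein phosphatase PP2A, came nearest among named genes, with a relative difference of 0.93. It was at 46.1 TPM with Klf4, against 13.2 TPM in MigRI, and at 7.53 TPM in the library labelled Klf4 cKO, against 22.2 TPM in Control (WT). Arhgap10, a GTPase-activating protein, was at 19.1 TPM with Klf4, against 8.69 TPM in MigRI, and at 6.32 TPM in the library labelled Klf4 cKO, against 20.5 TPM in Control (WT). Its relative difference for Klf4 minus MigRI was 0.26. Bcl2l2, which encodes the anti-apoptotic protein BCL-W, was at 3.27 TPM with Klf4, against 0.306 TPM in MigRI, and at 0.879 TPM in the library labelled Klf4 cKO, against 5.56 TPM in Control (WT). Its relative difference was 0.91 for Klf4 minus MigRI, and with scaling by the median of ratios it was 1.06.

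In ribosome and RNA biology, Bysl, which is needed to build the small ribosomal subunit, was at 58.5 TPM with Klf4, against 21.5 TPM in MigRI, and at 9.46 TPM in the library labelled Klf4 cKO, against 29.8 TPM in Control (WT). Dhx32, a putative RNA helicase, was at 24.9 TPM with Klf4, against 9.45 TPM in MigRI, and at 4.41 TPM in the library labelled Klf4 cKO, against 10.2 TPM in Control (WT). Both stood highest in the Klf4 library and lowest in the library labelled Klf4 cKO. Eme1, which forms a DNA endonuclease with Mus81, was at 18.7 TPM with Klf4, against 6.05 TPM in MigRI, and at 4.30 TPM in the library labelled Klf4 cKO, against 11.5 TPM in Control (WT). Relative differences for Klf4 minus MigRI were 0.61 for Bysl, 0.52 for Dhx32 and 0.69 for Eme1, all under the limit.

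In mitochondria and metabolism, Spg7, a subunit of a mitochondrial inner membrane protease, was at 23.7 TPM with Klf4, against 7.43 TPM in MigRI, and at 8.39 TPM in the library labelled Klf4 cKO, against 18.2 TPM in Control (WT). Cox6a2, the cytochrome c oxidase subunit typical of heart and skeletal muscle, was at 10.9 TPM with Klf4, against 3.34 TPM in MigRI, and at 3.60 TPM in the library labelled Klf4 cKO, against 10.7 TPM in Control (WT). Cox6a2 was the 1 gene of the set among 194 measured genes of the respiratory chain and mitochondrial ribosome, which is near the 0.525% of all measured genes. Bdh2, a cytosolic dehydrogenase, was at 21.4 TPM with Klf4, against 7.78 TPM in MigRI, and at 18.1 TPM in the library labelled Klf4 cKO, against 39.8 TPM in Control (WT). Urah, an enzyme of urate breakdown, was at 23.2 TPM with Klf4, against 10.9 TPM in MigRI, and at 2.04 TPM in the library labelled Klf4 cKO, against 5.30 TPM in Control (WT). Bdh2 was thus higher in both libraries of the genetic experiment than in MigRI, and Urah was lower in both than in MigRI. Hk2, the hexokinase that starts glycolysis, was chosen after its values were seen and was at 12.4 TPM with Klf4, against 5.18 TPM in MigRI, and at 3.56 TPM in the library labelled Klf4 cKO, against 9.30 TPM in Control (WT).

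Among genes of the cytoskeleton and protein handling, Nudcd3, a NudC family protein linked to dynein, was at 17.99 TPM with Klf4, against 6.74 TPM in MigRI, and at 7.47 TPM in the library labelled Klf4 cKO, against 26.3 TPM in Control (WT). Tubgcp4, a component of the gamma-tubulin ring complex, was at 10.6 TPM with Klf4, against 4.58 TPM in MigRI, and at 4.87 TPM in the library labelled Klf4 cKO, against 11.8 TPM in Control (WT). These 2 genes had similar levels in the 2 low libraries. Cand2, of a family that binds cullins, was at 4.26 TPM with Klf4, against 0.903 TPM in MigRI, and at 3.97 TPM in the library labelled Klf4 cKO, against 33.2 TPM in Control (WT). Control (WT) thus stood apart for Cand2, with the other 3 libraries under 5 TPM. Guca1a, a calcium-binding activator of guanylate cyclase in photoreceptors, was at 24.1 TPM with Klf4, against 11.1 TPM in MigRI, and at 9.38 TPM in the library labelled Klf4 cKO, against 20.7 TPM in Control (WT). Its relative difference for Klf4 minus MigRI was 0.26.

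Regulators of transcription and cell fate named next were chosen after their values were seen. Tcf7l2, a transcription factor of Wnt signalling, was at 9.74 TPM with Klf4, against 2.39 TPM in MigRI, and at 0.181 TPM in the library labelled Klf4 cKO, against 1.65 TPM in Control (WT). Numb, an adaptor that inhibits Notch, was at 6.30 TPM with Klf4, against 1.76 TPM in MigRI, and at 3.01 TPM in the library labelled Klf4 cKO, against 8.08 TPM in Control (WT). Hoxc9, a homeobox factor, was at 15.9 TPM with Klf4, against 5.28 TPM in MigRI, and at 3.76 TPM in the library labelled Klf4 cKO, against 8.72 TPM in Control (WT). Tcf7l2 was higher in MigRI than in Control (WT), so its 2 high libraries did not both exceed its 2 low ones.

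Gene lists of T cell programmes and cell functions were set against the 66 genes. In 15 gene lists that covered immediate early, Krüppel-like, memory, cytolytic, inhibitory receptor, T cell transcription factor, interferon, chaperone, cell cycle, apoptosis, TGF-beta, circadian, chromatin, DNA repair and noncoding genes, 435 genes were measured. Of these, 189 were higher with Klf4 by the limit and 14 were lower in the library labelled Klf4 cKO, and Bcl2l2 alone was among the 66 genes, 0.230% against 0.525% of all measured genes. Among 38 measured immediate early and feedback genes, 25 were higher with Klf4 and 0 lower in the library labelled Klf4 cKO. Both pairs of counts stand beside 43.7% of all measured genes higher with Klf4 and 6.92% lower in the library labelled Klf4 cKO. At the background share, lists of this size would hold less than 1 gene of the set, so the absence of a list says little. Of the families picked by name, 6 held 1 gene of the set each, where 0.525% of all measured genes belong to it: Arhgap10 of 139 measured GTPase regulators, Ppp2r5d of 103 phosphatases, Cox6a2 as above, Dhx32 of 186 splicing and mRNA processing genes, Mars of 63 genes of tRNA synthetases and modification, and Tubgcp4 of 189 genes of cilium, centrosome and microtubules. The other 5 families held none. In all, 57 of the 66 genes were in no list. The matching share of all measured genes is not given here, so this count is not read as a trait of the set.

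The only cell type markers among the 66 genes were S100a8 and S100a9. They encode the subunits of calprotectin, which neutrophils and monocytes hold in large amounts, and lie next to each other on chromosome 3. S100a8 was at 50.9 TPM with Klf4, against 17.98 TPM in MigRI, and at 2.44 TPM in the library labelled Klf4 cKO, against 18.1 TPM in Control (WT). S100a9 was at 30.2 TPM with Klf4, against 9.86 TPM in MigRI, and at 0.732 TPM in the library labelled Klf4 cKO, against 10.9 TPM in Control (WT). Both were highest with Klf4, nearly equal in MigRI and Control (WT), and lowest in the library labelled Klf4 cKO. The other 4 markers of the neutrophil list were sparse. Csf3r was at 3.82 TPM with Klf4, against 0.240 TPM in MigRI, and at 0.199 TPM in the library labelled Klf4 cKO, against 0.310 TPM in Control (WT). Retnlg was at 19.7 TPM with Klf4 and listed at 0 in the other 3 libraries, Cxcr2 was at 1.79 TPM with Klf4 and at most 0.0693 TPM elsewhere, and Mpo was listed at 0 in all 4. The summed list was 106 TPM with Klf4, against 28.1 TPM in MigRI, while it was 3.44 TPM in the library labelled Klf4 cKO, against 29.3 TPM in Control (WT). S100a8 and S100a9, chosen by these same differences, made up most of each sum, so the sum follows their order by construction. The part of neutrophil RNA in the values of S100a8 and S100a9 was not tested.

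**Figure D4:**
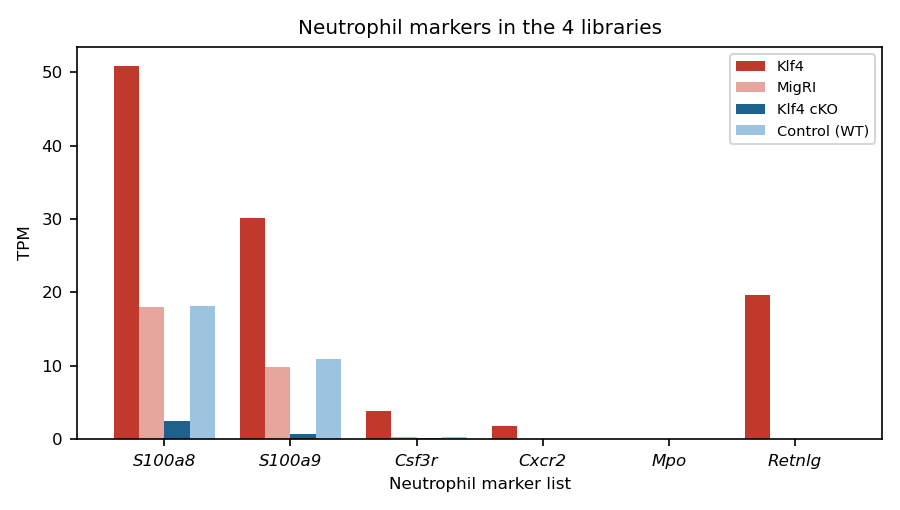
TPM of the 6 markers of the neutrophil list, with bars for Klf4, MigRI, Klf4 cKO and Control (WT) from left to right within each gene (1 library each, no error). S100a8 and S100a9 have bars in all 4 libraries, and Csf3r, Cxcr2 and Retnlg reach 1 TPM in the Klf4 library alone.

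Noncoding and short genes took a larger share than in the background. Of the 60 placed genes, 61.7% were protein coding, against 82.5% of placed measured genes. lncRNAs were 20%, against 5.70%, small RNAs 15%, against 1.60%, and pseudogenes 3.33%, against 8.77%. Genes that span under 200 bases were 15% of the placed genes, against 2% in the background. The median span of the protein-coding genes was 14241 bases, against 20594 bases for all measured protein-coding genes. TPM divides by transcript length, so few reads give a short gene a high and unsteady value. By chromosome the highest count was 7 on chromosome 3, 11.7% of placed genes, against 4.84% of measured genes.

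The highest levels in the set belonged to lncRNAs. AY036118, at chr17:39848112-39898385, was at 285 TPM with Klf4, against 138 TPM in MigRI, and at 84.2 TPM in the library labelled Klf4 cKO, against 199 TPM in Control (WT). It overlaps Rn18s-rs5, a ribosomal RNA related sequence, which was at 811 TPM with Klf4, against 228 TPM in MigRI, and at 788 TPM in the library labelled Klf4 cKO, against 645 TPM in Control (WT). The overlapping sequence was higher in the library labelled Klf4 cKO, by 0.29 on the log2 scale as deposited, though by the relative difference it was at -0.45. Gm39794, a lncRNA on chromosome 2, was at 103 TPM with Klf4, against 38.4 TPM in MigRI, and at 25.1 TPM in the library labelled Klf4 cKO, against 54.8 TPM in Control (WT). LOC115486953, which the annotation did not place, was at 58.6 TPM with Klf4, against 9.49 TPM in MigRI, and at 7.33 TPM in the library labelled Klf4 cKO, against 19.98 TPM in Control (WT). Of these 3 entries only LOC115486953 stayed past both limits after subtraction of the medians. Among small RNAs, the mitochondrial leucine tRNA gene TrnL1, named after its values were seen, was at 32.4 TPM with Klf4, against 6.67 TPM in MigRI, and at 7.24 TPM in the library labelled Klf4 cKO, against 15.6 TPM in Control (WT).

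Genes of the set often overlapped another annotated gene. This held for 45 of the 60 placed genes (75.0%), against 46.8% of measured genes, and for 30 of the 37 protein-coding ones (81.1%), against 45.1%. Overlap was taken from whole gene spans on either strand, introns included, and whether exons overlap was not examined. The SMART-seq kit does not mark strand. Where exons do overlap, reads from the overlap cannot be assigned to 1 of the 2 genes, and values of both are uncertain. Of 44 pairs with a measured overlapping gene, that gene was higher with Klf4 by the limit in 22 (50%, against 43.7% of all measured genes). It was lower in the library labelled Klf4 cKO in 4 (9.09%, against 6.92%) and higher there in 9 (20.5%, against 38.4%). No overlapping gene was itself one of the 66.

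The single pairs below were chosen after their values were seen. All come from the 9 of 44 pairs whose overlapping gene was higher by the limit in the library labelled Klf4 cKO. The overlapping gene was lower there by the limit in 4 pairs and past neither limit in the rest, so these examples are not typical. Ddx49, an RNA helicase gene that overlaps Homer3, was at 119 TPM with Klf4, against 20.4 TPM in MigRI, and at 21.1 TPM in the library labelled Klf4 cKO, against 5.68 TPM in Control (WT). Mlst8, an mTOR complex subunit gene that overlaps Bricd5, was at 10.5 TPM with Klf4, against 2.44 TPM in MigRI, and at 1.78 TPM in the library labelled Klf4 cKO, against 0.179 TPM in Control (WT). Bccip, which overlaps Dhx32, was at 264 TPM with Klf4, against 243 TPM in MigRI, and at 137 TPM in the library labelled Klf4 cKO, against 36.0 TPM in Control (WT). In these 3 pairs the overlapping gene was higher in the library labelled Klf4 cKO than in Control (WT), where Homer3, Bricd5 and Dhx32 were lower. Rpp14, which shares its locus with Htd2, was at 22.4 TPM with Klf4, against 13.1 TPM in MigRI, and at 8.90 TPM in the library labelled Klf4 cKO, against a listed 0 in Control (WT). Htd2 was at 1.73 TPM with Klf4, at a listed 0 in MigRI and in the library labelled Klf4 cKO, and at 2.39 TPM in Control (WT), so the order was converse only in the genetic experiment. Whether reads were divided differently between overlapping genes in each library was not tested. Ahnak, Spg7, S100a8 and S100a9 overlap no other annotated gene.

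**Figure D5:**
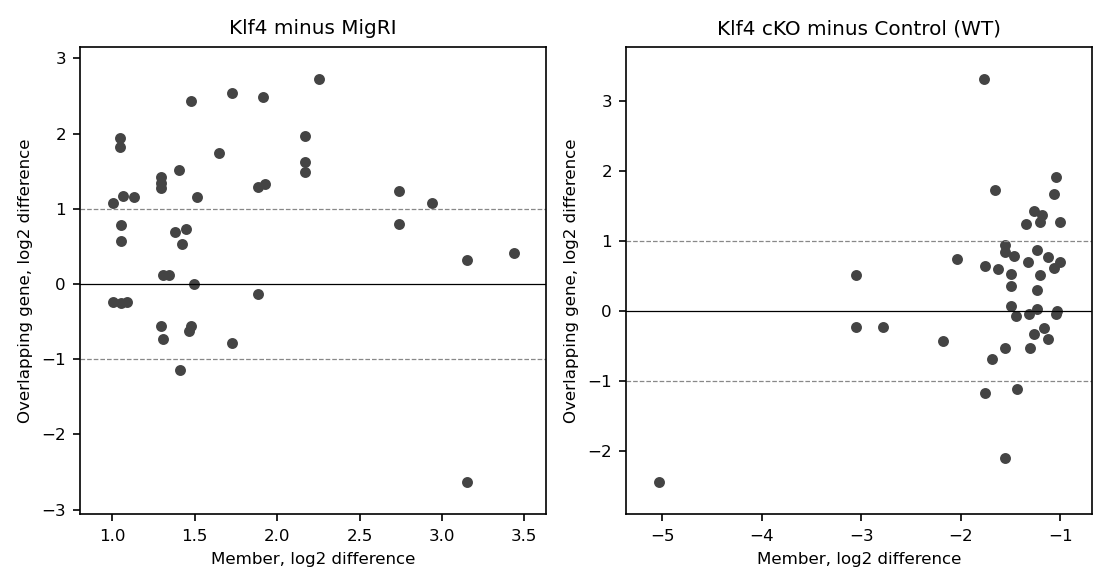
Difference in log2(TPM + 1) of each gene of the set (horizontal) and of a measured gene that overlaps it (vertical), for Klf4 minus MigRI on the left and Klf4 cKO minus Control (WT) on the right, with 1 point per pair and 44 pairs in each panel. Dashed lines mark 1 and -1. On the left 22 points lie at or above 1, and on the right 4 lie at or below -1 and 9 at or above 1.

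Promoters were examined for GGGNGTG, the core of the Krüppel-like factor type of site, where N is any base. RefSeq promoters, from 250 bases before to 50 after a start on GRCm38.p6, were available for 41 of the 66 genes. GGGNGTG was present on either strand in 32.0% of their 50 promoters, against 35.2% of 11144 promoters of measured genes. By gene, the motif was in 36.6% of the 41 genes of the set, against 39.4% of 8841 measured genes with a promoter. Of the 18 genes that stayed past both limits, 11 had a promoter, and 5 of these held the motif. Among the 9 protein-coding genes of the 18, 7 had a promoter. The motif was held by 4 of these, Gorasp1, Homer3, Klk1 and Tmem200b. Whether 5 of 11 or 4 of 7 differs from the 39.4% of measured genes was not tested. Promoters of 3 of the 4 genes, all but Klk1, are shown as examples of a Krüppel-like match in a gene whose difference remained. They lie at chr8:70282749-70283048 on the plus strand for Homer3, at chr9:119937509-119937808 on the minus strand for Gorasp1, and at chr4:131921521-131921820 on the plus strand for Tmem200b. Capitals mark the match, which reads CACNCCC where it lies on the opposite strand.
Homer3: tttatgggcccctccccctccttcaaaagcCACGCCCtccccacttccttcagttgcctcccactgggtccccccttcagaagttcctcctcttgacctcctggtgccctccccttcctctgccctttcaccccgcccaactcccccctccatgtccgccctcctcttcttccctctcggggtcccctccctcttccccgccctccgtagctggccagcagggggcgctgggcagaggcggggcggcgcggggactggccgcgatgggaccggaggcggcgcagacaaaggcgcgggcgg
Gorasp1: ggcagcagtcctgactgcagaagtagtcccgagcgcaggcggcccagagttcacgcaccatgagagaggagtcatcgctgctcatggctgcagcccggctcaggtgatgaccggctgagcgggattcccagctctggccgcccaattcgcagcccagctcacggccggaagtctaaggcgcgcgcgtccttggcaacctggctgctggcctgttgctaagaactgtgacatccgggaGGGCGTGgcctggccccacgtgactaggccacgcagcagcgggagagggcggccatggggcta
Tmem200b: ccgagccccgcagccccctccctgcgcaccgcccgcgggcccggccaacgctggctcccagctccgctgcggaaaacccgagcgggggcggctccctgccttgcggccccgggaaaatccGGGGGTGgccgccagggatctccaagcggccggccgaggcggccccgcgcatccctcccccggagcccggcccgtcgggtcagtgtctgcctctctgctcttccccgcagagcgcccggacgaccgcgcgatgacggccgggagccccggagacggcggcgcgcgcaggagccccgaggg

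The match in Homer3 is on the opposite strand, far upstream of the start, and the matches in Gorasp1 and Tmem200b are on the gene's own strand. No binding was measured here, and a match is a description of letters. The other motifs were counted the same way, and none of the 4 motifs contains another. TGANTCA, the AP-1 site, was in 10% of the promoters of the set, against 5.46% of all. TATAAA, the TATA box, was in 14%, against 7.91%, and its 7 genes were AY036118, Dhx32, Gm39794, Numb, S100a8, S100a9 and Tcf7l2. CCAAT was in 32.0%, against 38.4%. The median GC content was 59.2%, against 60.3% for all promoters.

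Genes outside the set could also satisfy the limits once the medians were subtracted. In all 89 genes (0.708%) did, the 18 above and 71 others, which made up 3.31% of the genes past the relative limit for Klf4 minus MigRI and 4.38% of those past it for Klf4 cKO minus Control (WT). The 10 with a mean of at least 10 TPM, leaving out predicted and small RNA genes, included Nt5dc2, Pofut2, Mgat1, Ankrd1, Lrrc41, Dnajb2, Paqr4, Ufsp2 and Noc2l. Nt5dc2 had the largest smaller difference, at 167 TPM with Klf4, against 23.0 TPM in MigRI, and at 9.52 TPM in the library labelled Klf4 cKO, against 18.1 TPM in Control (WT). Pofut2, a protein O-fucosyltransferase, was at 61.9 TPM with Klf4, against 11.2 TPM in MigRI, and at 21.8 TPM in the library labelled Klf4 cKO, against 39.0 TPM in Control (WT). Mgat1, which starts the synthesis of complex N-glycans, was at 27.8 TPM with Klf4, against 3.96 TPM in MigRI, and at 3.94 TPM in the library labelled Klf4 cKO, against 6.39 TPM in Control (WT). Each of these 3 was short of the deposited limit of -1 for Klf4 cKO minus Control (WT).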

How the data were processed

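The 4 libraries of tumour-infiltrating CD8 T cells were compared in pairs. TRI Reagent extraction preceded SMART-seq (Ultra Low Input) library preparation, per the labels' protocols. Trimmomatic, HISAT2, StringTie, edgeR and the mm10 build are named in the submitters' processing notes. What each tool did, its version and the annotation were not given in the sources used here. The authors deposited gene-level TPM values, which divide by transcript length and scale each library to 1 total, so depth is unknown and a few abundant genes lower all others.

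The 45777 entries per table were read with Python 3.11.15 and pandas 2.3.3. Dates stood in place of 26 symbols in the control library's values. Of these, 22 were mapped back and the 4 genes behind 2 ambiguous dates were left out. A gene was called measured from a mean of 1 TPM. Differences are of log2(TPM + 1) and understate those of low genes. Relative differences subtract the median over measured genes. The selection was run on simulated libraries in which genes at a mean of at least 10 TPM were moved by a known amount. Those libraries held no moved genes at lower levels and no difference shared by most genes. The run therefore says nothing of such cases. The members and lists were chosen with earlier results of these data known, and the marker, gene and family lists carry no test.

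Named genes were Klf4 and up to 20 members with the largest smaller relative difference. These members had a mean of at least 10 TPM and were not listed at 0. Added were the 10 highest in level and up to 4 per list at a mean of at least 5 TPM (or all if fewer). Members among cell type markers, and the 3 genes on each side of each limit at a mean of at least 10 TPM, were also named. Predicted, small RNA, receptor segment, pseudogene, mitochondrial and ribosomal protein genes were named only among the 10 highest. Positions, overlaps and sequences are from RefSeq, GRCm38.p6. Mars was matched as Mars1 and Mir1911 as Gm24627, both by synonym.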

Additional observations from a re-analysis of the deposited data

How the results depend on the processing

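All 66 genes kept the sign of both differences under every alternative in which they were measured. For most alternatives this was fixed by how the genes were chosen. Changes of pseudocount or filter, subtraction of the medians and scaling to the receptor genes could not change a sign. With a pseudocount of 0.1, 158 genes met both conditions, all 66 among them, and with one of 5 only 9 did. Those 9 were AY036118, Ahnak, Bysl, Homer3, LOC115486953, Ppp2r5d, S100a8, S100a9 and Tmem200b. At a pseudocount of 5, the genes higher with Klf4 numbered 3567 and those lower in the library labelled Klf4 cKO 496, against 5491 and 870. A mean of at least 5 TPM gave 34, 3388 and 551 genes (both conditions, higher with Klf4, lower in the library labelled Klf4 cKO), and one of at least 10 TPM gave 24, 2350 and 432. Subtraction of the medians gave 2691 genes higher with Klf4 and 2034 lower in the library labelled Klf4 cKO, and scaling by the median of ratios gave 2464 and 2044. Each of these left 18 of the 66 genes, 15 of them shared. Bcl2l2, Gm35235 and LOC115486626 passed by median of ratios alone, and Gm30368, Homer3 and Mars by subtraction alone. Rescaling after removal of genes of the mitochondrial genome, ribosomal proteins and receptor segments, or without the 50 most abundant genes, left 59 of the 66. Relative to the T cell receptor constant genes Trac, Trbc1 and Trbc2, an alternative chosen after seeing the data, 11312 genes were higher with Klf4, 6409 were lower in the library labelled Klf4 cKO, and 5491 met both conditions, all 66 among them. This is by coincidence the number higher with Klf4 as deposited. Of 520 values recomputed for the 24 named genes, 446 stayed on the same side of the limit, 71 fell short of it and 3, all of Klf4 itself for Klf4 cKO minus Control (WT), changed sign without being past it as deposited. These were -0.47 relative to the medians, -0.52 by median of ratios and -1.49 relative to the receptor genes. Changes of filter leave each difference as it was, and a pseudocount of 0.1 can only enlarge those of the 66 genes. Many of the 446 were thus fixed in advance, and the count is no measure of stability. No paired analysis was possible because each group held 1 library. Depth is unknown, so values under a few TPM carry an error that cannot be given, and in 32 of the 66 genes no library reached 10 TPM.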
